A study of Mus musculus with 9 samples.

Results

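Peroxisomes are small organelles that shorten very long and branched fatty acids, begin the synthesis of ether lipids and break down the hydrogen peroxide that these reactions make. The genes described here encode proteins that build the organelle, the peroxins, and enzymes or transporters of its lipid metabolism. Members were taken by name: a gene belonged if the platform annotation gave 1 of the 31 listed symbols as the only symbol of a probe set. All 31 were measured, 11 peroxins and 20 enzymes and transporters, among 18193 genes on the arrays. Where a gene had several probe sets, the brightest on average represented it, and the others served as a check.

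The arrays were Affymetrix mouse expression arrays of left ventricular RNA from male C57BL/6 mice, 6 weeks after surgery. One group had transaortic constriction (TAC, 4 arrays), a narrowing of the aorta that makes the ventricle pump against raised pressure, and the control group had sham surgery (5 arrays). The study used TAC to induce heart failure. The labels name no transgene or drug in either group, and the age of the mice is not stated. The labels do not say that every array is a separate mouse, so a p-value here reflects only the variation among these 9 arrays, which may be technical. Values are log2 RMA values, 1 per probe set, and a difference is TAC minus sham on that scale. It is given with the standard error (SE) of a limma fit over all genes and a Benjamini-Hochberg adjusted p over all 18193 genes. A gene "fell" or "rose" where that adjusted p was below 0.05.

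Proteins made in the cytosol enter peroxisomes through a cycle that peroxins run. The receptors Pex5 and Pex7 bind cargo, Pex13 and Pex14 dock the loaded receptor at the membrane, and Pex2, Pex6 and Pex26 belong to the machinery that takes the receptor out again for another round. Pex3, Pex16 and Pex19 insert membrane proteins, and Pex11a takes part in elongation and division of the organelle. In the matrix, acyl-CoA oxidases, a bifunctional enzyme and a thiolase shorten fatty acids in a cycle, and the products leave mainly as carnitine esters that heart mitochondria can burn. Several of these genes are known targets of the fatty acid receptor PPAR-alpha in rodent liver.

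In the TAC ventricles 12 of the 31 genes fell and 0 rose, against a background of 12.3% of all genes lower and 12.8% higher at the same threshold. Among the peroxins 5 of 11 fell, and among the enzymes and transporters 7 of 20 fell. With each array centred on the median of its 18193 gene values, the shares of all genes were 16.0% and 10.9%, and 7 of 11 peroxins and 10 of 20 enzymes fell. In a fit of only the genes brighter than the median gene, 24.2% of genes were lower and 21.2% higher. There 6 of 10 peroxins and 10 of 16 enzymes fell. The decreases were moderate. The largest were in Ehhadh, the L-bifunctional enzyme of beta-oxidation, which was 1.81-fold lower, in the carnitine acetyltransferase gene Crat (1.70-fold), in the ATPase gene Pex6 (1.65-fold at its brightest probe set, with -0.33 for the mean of its probe sets against -0.72), and in Ech1 and Pex11a (1.49-fold and 1.48-fold). The median difference was -0.19 for the peroxins and -0.19 for the enzymes, where the median of all genes was 0.00. For the count of 0 that rose, 1 member (Hacl1) had an unadjusted p below 0.05 in limma and was higher. In limma with its trend and robust options 0 rose, and 1 enzyme rose with the mean of probe sets (Cat), with genes above the median gene, with array weights and without sham replicate 2 (Hacl1 in each).

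**Figure D1:**
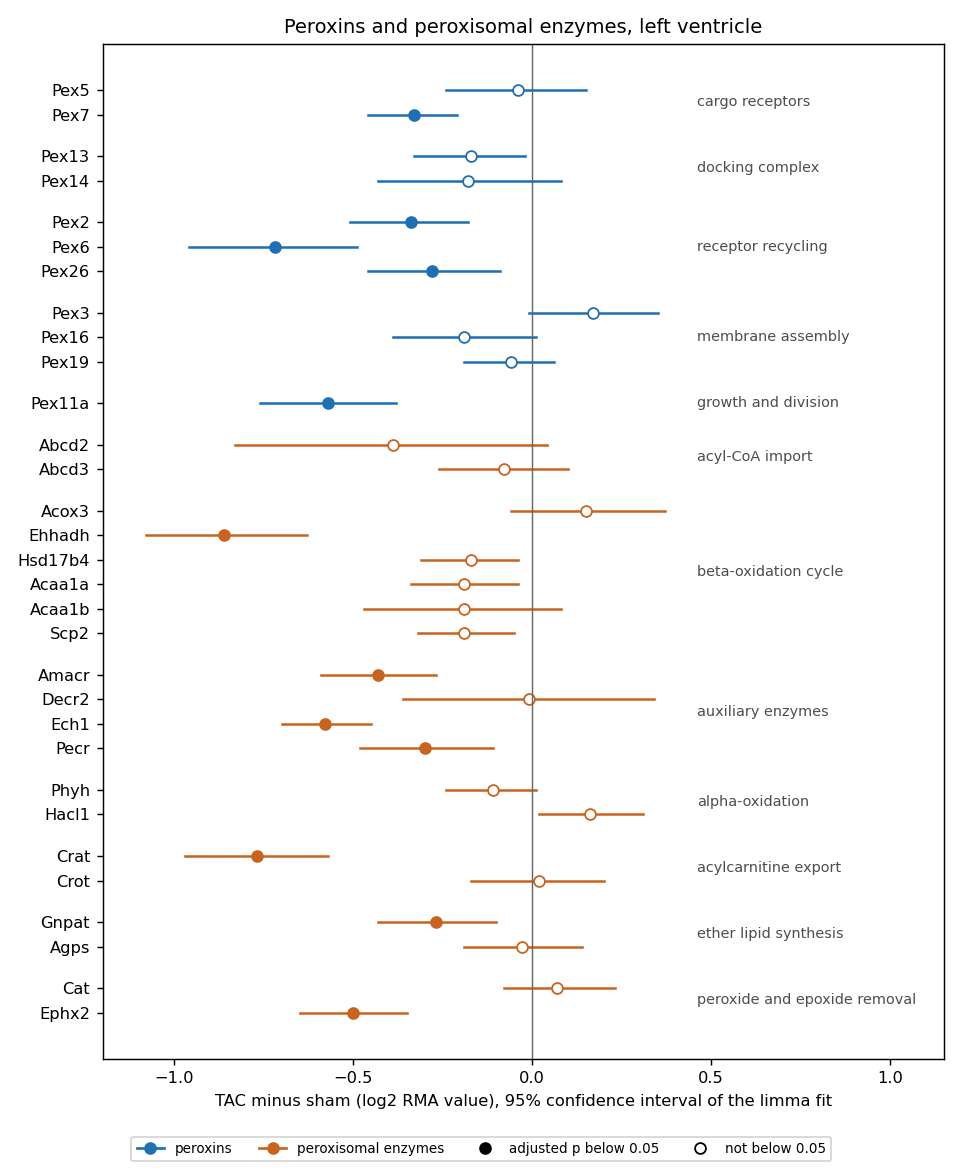
Difference between TAC and sham (x axis, log2 RMA value) for each of the 31 genes, grouped by role, with the 95% confidence interval of the limma fit; filled points have an adjusted p below 0.05. The 12 filled points all lie left of 0, from -0.86 for Ehhadh to -0.27 for Gnpat, and the cargo receptor Pex5 and the membrane assembly genes Pex3, Pex16 and Pex19 are open.

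The stretches of DNA just before the transcription start are shown for 5 of the genes that fell and for Scp2, which did not pass, because they let a reader see how these promoters differ. RefSeq promoter windows (GRCm38.p6) were matched by symbol for 24 of the 31 genes, in 28 windows. Each line gives the 120 bases before the start, 5′ to 3′ on the gene's own strand. Capitals mark the GC box GGGCGG, the CCAAT box CCAAT and the nuclear receptor motif AGGTCA, each searched on both strands, so that a match on the opposite strand appears as its reverse complement.
Ehhadh (chr16:21787835-21787954, minus strand): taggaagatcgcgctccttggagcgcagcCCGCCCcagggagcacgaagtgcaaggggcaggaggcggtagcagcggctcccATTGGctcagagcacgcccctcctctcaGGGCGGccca
Ech1 (chr7:28825218-28825337, plus strand): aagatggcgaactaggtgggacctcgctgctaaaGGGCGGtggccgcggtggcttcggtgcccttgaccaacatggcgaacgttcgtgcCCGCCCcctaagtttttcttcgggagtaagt
Pex11a (chr7:79743132-79743251, minus strand): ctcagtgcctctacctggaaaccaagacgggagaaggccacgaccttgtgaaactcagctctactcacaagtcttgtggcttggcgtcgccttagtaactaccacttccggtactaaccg
Pex6 (chr17:46711356-46711475, plus strand): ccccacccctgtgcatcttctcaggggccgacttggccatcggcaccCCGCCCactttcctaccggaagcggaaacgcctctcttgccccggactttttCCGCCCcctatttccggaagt
Pex7 (chr10:19907675-19907794, minus strand): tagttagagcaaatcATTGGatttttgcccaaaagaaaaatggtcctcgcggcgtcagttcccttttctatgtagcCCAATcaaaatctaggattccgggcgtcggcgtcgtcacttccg
Scp2 (chr4:108118548-108118667, minus strand): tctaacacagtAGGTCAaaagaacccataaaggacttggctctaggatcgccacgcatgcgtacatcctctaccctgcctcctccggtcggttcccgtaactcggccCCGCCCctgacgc

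These stretches differ in composition. Those of Ehhadh, Ech1 and Pex6 hold 2 GC boxes each, that of Pex7 holds 2 CCAAT boxes and no GC box, and that of Pex11a holds none of the 3 motifs. Over the 250 bases before the start, GC boxes were in 18 of the 28 windows of these genes (64.3%, against 32.7% of all 32851 windows) and CCAAT boxes in 12 (42.9%, against 33.8%). The nuclear receptor motif AGGTCA was in 2 windows, those of Scp2 and Cat (7.14%, against 14% of all windows), and in 0 of the 8 windows of genes that fell. The DR1 repeat, which is AGGTCA repeated after 1 free base, was in 0 of the 28 windows and in 0.0335% of all windows. The site TCAAGGTCA, which contains AGGTCA, was in 0 of the 28 and in 0.387% of all, and the NRF1 site in 0 of the 28 and in 0.782% of all. A match is only a match of letters, and these windows do not cover more distant sequence.

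Of the cargo receptors, Pex7 fell and Pex5 did not pass. Pex7 binds the few matrix enzymes with a targeting signal near the amino end, such as the thiolase and the alpha-oxidation enzyme Phyh. Its values were 10.40, 10.38, 10.49, 10.38 and 10.37 in the sham arrays and 10.10, 10.08, 10.04 and 10.04 in the TAC arrays. Every TAC array was below every sham array, and the difference was -0.33 (SE 0.06, adjusted p = 0.00158 in limma). Pex5, the receptor for most matrix enzymes, ranged from 8.17 to 8.45 in sham and from 8.07 to 8.42 in TAC. Its groups overlapped almost completely, with a difference of -0.04 (95% confidence interval -0.24 to 0.15). The dimmer Pex5 probe set differed by -0.24 (adjusted p over all probe sets = 0.369), and the mean of both by -0.14 (adjusted p = 0.371). The change of Pex7 relative to Pex5 within arrays was -0.29 at the brightest probe sets. This and the like values below are for pairs set after the values were seen, so they are descriptions without a test.

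All 3 members of receptor recycling fell, where 12.3% of all genes were lower. Pex10, a further peroxin outside the members, did not pass (-0.23, adjusted p = 0.0656 in limma). Pex6, an ATPase that pulls the receptor from the membrane, measured 9.41, 9.27, 9.38, 9.63 and 9.79 in sham and 8.72, 8.89, 8.72 and 8.75 in TAC. The 4 TAC values lay close together, all below the lowest sham value, and the difference was -0.72 (SE 0.10, adjusted p = 0.000674). Pex6 had 5 probe sets, and they disagreed in size. The brightest is of the kind that can bind related transcripts. A second one, of a kind shared by several transcripts, was lower by a like amount (-0.63, adjusted p over all probe sets = 0.00374), while the other 3, at -0.25, -0.14 and 0.10, did not pass (0.186 to 0.675). The mean of the 5 differed by -0.33 (adjusted p = 0.00753), so the size of the Pex6 decrease depends on the probe set.

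Pex2, a ubiquitin ligase of the membrane complex that marks the receptor for export, measured 10.46, 10.53, 10.65, 10.66 and 10.73 in sham and 10.16, 10.24, 10.35 and 10.31 in TAC. The groups did not overlap, and the difference was -0.34 (SE 0.07, adjusted p = 0.00739), with -0.38 at its other probe set (adjusted p over all probe sets = 0.0120). Pex26, which anchors the Pex6 ATPase to the membrane, measured 8.05, 7.88, 7.83, 7.79 and 7.69 in sham and 7.59, 7.70, 7.53 and 7.47 in TAC. Here TAC replicate 2 lay just above sham replicate 5. The Pex26 difference of -0.28 (SE 0.08, adjusted p = 0.0360) was the least firm of the 5 peroxin calls: it was lost without any 1 of 7 arrays, all but sham replicate 5 and TAC replicate 2, with adjusted p from 0.0515 without sham replicate 2 to 0.0950 without TAC replicate 3. With limma's trend and robust options its adjusted p was 0.0577.

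Pex11a, the growth and division gene, had the second largest decrease of the peroxins at the brightest probe sets, and the largest with the mean of probe sets (-0.64, against -0.36 for Pex2 and -0.33 for Pex6). Its values were 10.06, 10.31, 10.09, 9.89 and 9.94 in sham and 9.48, 9.44, 9.54 and 9.50 in TAC. The TAC arrays were nearly level with each other and all below the sham arrays, with a difference of -0.57 (SE 0.09, adjusted p = 0.000945). Its dimmer probe set gave -0.70 (adjusted p over all probe sets = 0.000102).

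None of the docking and membrane assembly genes passed in the main fit, that of all 9 arrays. With array weights Pex13, Pex14 and Pex16 fell (adjusted p = 0.0116, 0.0365 and 0.0283 in limma), where 16.7% of all genes were lower. With median centring Pex13 and Pex16 fell (0.0175 and 0.0345, with 16.0% of all genes lower). Among genes brighter than the median gene Pex13 fell (0.0490, with 24.2% lower). Pex3 and Pex19 passed in no alternative. For the docking genes, Pex13 measured 10.61, 10.36, 10.60, 10.58 and 10.65 in sham and 10.40, 10.34, 10.38 and 10.43 in TAC, a difference of -0.17 (adjusted p = 0.106). Sham replicate 2, at 10.36, lay within the TAC range while the other sham arrays lay above it. Without that array the Pex13 difference was -0.22 (adjusted p = 0.0154), although its second probe set was higher in TAC by 0.23 (adjusted p over all probe sets = 0.222). Pex14 ranged from 7.11 to 7.68 in sham, lowest again in sham replicate 2, and from 7.14 to 7.42 in TAC. Its difference was -0.18 (adjusted p = 0.311).

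For membrane assembly, Pex16 measured 8.71, 8.24, 8.51, 8.53 and 8.57 in sham and 8.41, 8.30, 8.27 and 8.32 in TAC. Sham replicate 2 was once more the lowest of the sham arrays. The difference was -0.19 (adjusted p = 0.161), and without that array -0.26 (adjusted p = 0.0203). Pex3, which receives new membrane proteins, was the only peroxin with a higher mean in TAC, at 8.60 to 8.86 in sham and 8.83 to 9.09 in TAC. The difference was 0.17 (adjusted p = 0.154), with 0.22 at its other probe set. Pex19, which carries those proteins to Pex3, stayed within 9.73 to 9.88 in all 9 arrays, with a difference of -0.06 (95% confidence interval -0.19 to 0.06).

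**Figure D2:**
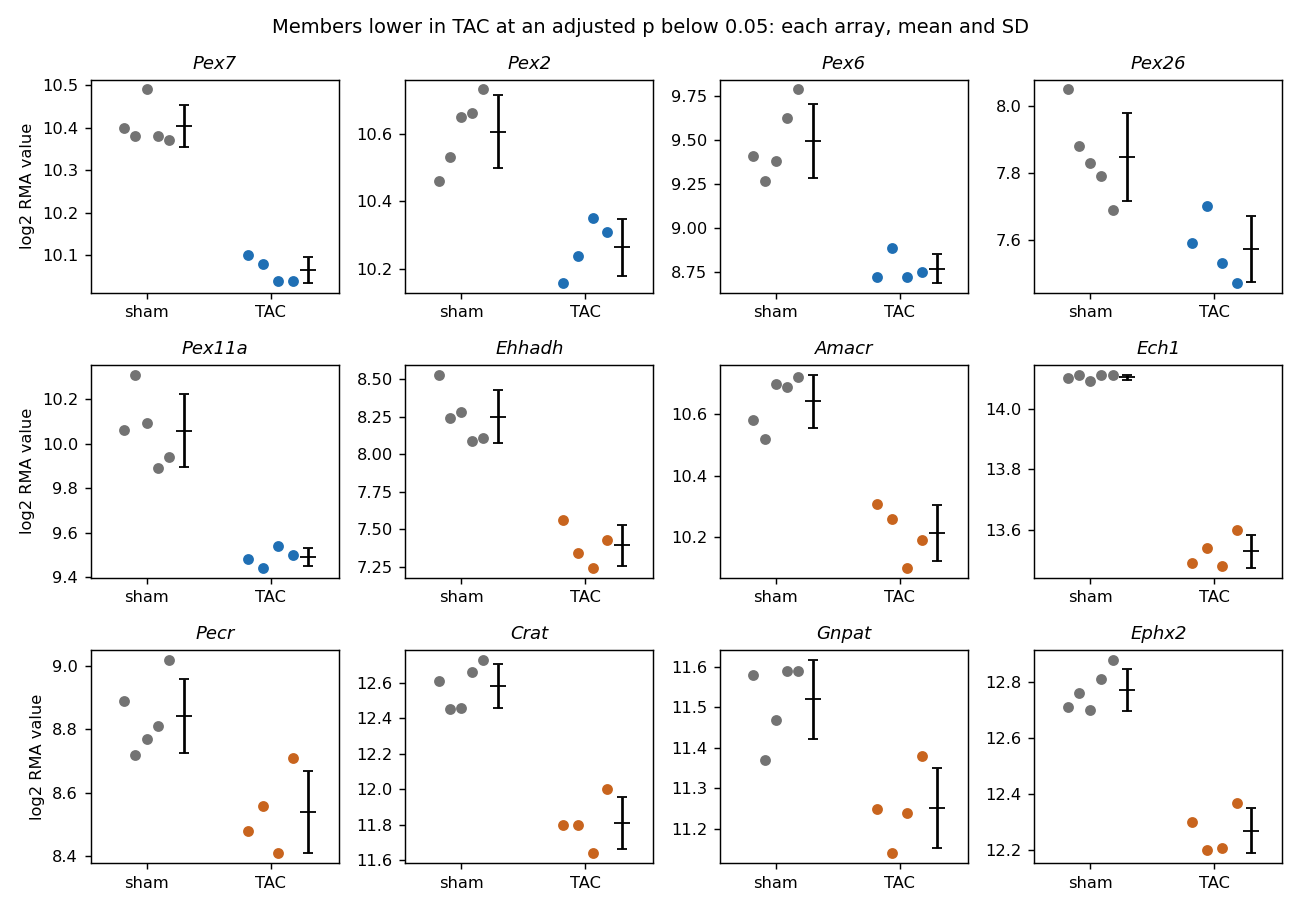
Values of the 12 genes that fell in each sham (grey, 5 arrays) and TAC array (4 arrays, blue for peroxins and orange for enzymes) on the log2 RMA scale, with the mean and the SD beside the points; axes differ between panels and do not start at 0. All TAC arrays lie below all sham arrays in 10 of the 12 panels, and in Pex26 and Gnpat 1 TAC array reaches the sham range.

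Within the beta-oxidation cycle 1 of 6 genes fell (16.7%), near the 12.3% of all genes that were lower. At an unadjusted p below 0.05 in limma 4 of the 6 were lower, as were 3259 of all 18193 genes. The count depended on the fit. Hsd17b4, Acaa1a and Scp2 also fell with limma's trend and robust options, with array weights and with median centring. They fell as well in the fit of genes brighter than the median gene. In these fits 13.8%, 16.7%, 16.0% and 24.2% of genes were lower, in that order. Ehhadh measured 8.53, 8.24, 8.28, 8.09 and 8.11 in sham and 7.56, 7.34, 7.24 and 7.43 in TAC. All TAC values were more than the whole sham range below the sham mean, and the difference was -0.86 (SE 0.10, adjusted p = 0.000214). Hsd17b4 encodes the D-bifunctional enzyme, which carries out the same steps on very long and branched chains. It measured 10.69, 10.55, 10.64, 10.68 and 10.66 in sham and 10.44, 10.40, 10.51 and 10.54 in TAC. Although these groups did not overlap, the gap was small, at -0.17 (SE 0.06, adjusted p = 0.0650), and its second probe set differed by -0.06. Without sham replicate 2 the Hsd17b4 adjusted p was 0.0363. The change of Ehhadh relative to Hsd17b4 within arrays was -0.68.

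The other genes of the cycle gave small differences. Scp2, which encodes a thiolase and a sterol carrier protein from the same gene, measured 12.93, 12.81, 12.91, 12.84 and 12.75 in sham and 12.66, 12.61, 12.66 and 12.72 in TAC. The groups did not overlap, and the difference was -0.19 with an adjusted p just past the threshold (0.0505). It passed without sham replicate 2 (0.0491) or 5 (0.0310). The 3 other Scp2 probe sets differed by 0.00 to 0.18, none past the threshold, and the mean of all 4 differed by 0.01 (adjusted p = 0.940). The thiolase gene Acaa1a differed by -0.19 (adjusted p = 0.0656, and 0.0328 without sham replicate 1). Acaa1a and Acaa1b are near-identical copies, and the Acaa1a probe sets are of the kind that can bind related transcripts, so their signals may not be separate. The Acaa1b probe set was dim in every array (3.60 to 4.38, where the array median was 6.57), and its difference of -0.19 did not pass. The oxidase gene Acox3 was also close to the array median, at 6.29 to 6.90, and its difference of 0.15 did not pass (adjusted p = 0.298).

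Of 4 enzymes that prepare unusual chains for the cycle or act beside it, 3 fell, against 12.3% of all genes lower, and 1 of the 3 calls, that of Pecr, was lost in 4 of the 9 fits without 1 array. Ech1, an isomerase for unsaturated chains that is also found in mitochondria, had the smallest adjusted p of all 31 genes. It measured 14.10, 14.11, 14.09, 14.11 and 14.11 in sham and 13.49, 13.54, 13.48 and 13.60 in TAC. The sham arrays differed by hundredths and the TAC arrays lay clearly below them, by -0.58 (SE 0.06, adjusted p = 4.92e-05). The sham values lay near the top of the scale, whose highest value was 14.80. Their spread and the size of the change could therefore be understated.

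The racemase gene Amacr, needed for branched chains, measured 10.58, 10.52, 10.70, 10.69 and 10.72 in sham and 10.31, 10.26, 10.10 and 10.19 in TAC. Its groups did not overlap, with a difference of -0.43 (SE 0.07, adjusted p = 0.00156). Pecr, an enoyl-CoA reductase gene, measured 8.89, 8.72, 8.77, 8.81 and 9.02 in sham and 8.48, 8.56, 8.41 and 8.71 in TAC. TAC replicate 4 lay just below the lowest sham array. The Pecr difference of -0.30 (SE 0.08, adjusted p = 0.0250) lost its call without sham replicate 1 (0.0505) or TAC replicates 1, 2 or 3 (0.0722, 0.0554 and 0.0820). Decr2, a dienoyl-CoA reductase gene, spread from 5.34 to 6.27 within the sham group alone and differed by -0.01 (95% confidence interval -0.36 to 0.34).

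Of the 2 carnitine acyltransferase genes, Crat fell and Crot did not pass. Crat, which makes short-chain carnitine esters in mitochondria as well as peroxisomes, measured 12.61, 12.45, 12.46, 12.66 and 12.73 in sham and 11.80, 11.80, 11.64 and 12.00 in TAC. All TAC values were well below the sham range. The difference was -0.77 (SE 0.09, adjusted p = 0.000185), and its other 2 probe sets gave -0.68 and -0.66 (adjusted p over all probe sets = 0.00487 and 0.00243). Crot, which acts on the medium chains that leave peroxisomes, ranged from 8.70 to 9.07 in sham and from 8.92 to 8.97 in TAC, and differed by 0.02 (95% confidence interval -0.17 to 0.20). The change of Crat relative to Crot within arrays was -0.79.

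Of the genes that remove reactive products, Ephx2 fell and Cat did not pass at its brightest probe set. Ephx2, the soluble epoxide hydrolase found in cytosol and peroxisomes, measured 12.71, 12.76, 12.70, 12.81 and 12.88 in sham and 12.30, 12.20, 12.21 and 12.37 in TAC. The groups were well apart, with a difference of -0.50 (SE 0.07, adjusted p = 0.000368). Catalase, encoded by Cat, destroys hydrogen peroxide and is the classical marker enzyme of the organelle. It measured 12.31, 12.50, 12.37, 12.34 and 12.46 in sham and 12.48, 12.57, 12.48 and 12.36 in TAC. These groups overlapped at the brightest probe set (0.07, adjusted p = 0.484). The other Cat probe set rose by 0.30 (adjusted p over all probe sets = 0.0143), and so did the mean of both, by 0.19 (adjusted p = 0.0494). Relative to Cat at its brightest probe set, the change of Ephx2 within arrays was -0.58.

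Ether lipid synthesis begins with Gnpat and continues with Agps. Gnpat measured 11.58, 11.37, 11.47, 11.59 and 11.59 in sham and 11.25, 11.14, 11.24 and 11.38 in TAC. Sham replicate 2 and TAC replicate 4 met at the boundary. The Gnpat difference of -0.27 (SE 0.07, adjusted p = 0.0239) lost its call without sham replicates 1 or 4 (0.0505 and 0.0593) or TAC replicates 1, 2 or 3 (0.0584, 0.0770 and 0.0631). Agps ranged from 9.57 to 9.81 in sham and from 9.60 to 9.84 in TAC and differed by -0.03 (95% confidence interval -0.19 to 0.14). Its dimmer probe sets differed by -0.14 and -0.38, neither past the threshold, and the mean of all its probe sets by -0.18 (adjusted p = 0.313).

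Alpha-oxidation removes a single carbon from branched chains such as phytanic acid. Its first enzyme, encoded by Phyh, ranged from 13.46 to 13.54 in sham and from 13.33 to 13.46 in TAC, a difference of -0.11 (adjusted p = 0.188). The lyase gene Hacl1 measured 8.78, 8.83, 8.70, 8.59 and 8.67 in sham and 8.93, 8.84, 8.86 and 8.86 in TAC. It was the only one of the 31 genes with all TAC values above all sham values, by 0.16 (adjusted p = 0.103, and 0.0499 without sham replicate 2). Relative to Hacl1, the change of Phyh within arrays was -0.27.

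Neither of the transporters that bring acyl-CoA into the organelle passed. Abcd2 measured 7.15, 8.31, 7.88, 7.74 and 7.59 in sham and 7.14, 7.45, 7.24 and 7.55 in TAC. Sham replicate 1 lay at the bottom of the TAC range and sham replicate 2 was the highest array. The Abcd2 difference was -0.39 (SE 0.20, adjusted p = 0.183), and without sham replicate 1 it was -0.54 (adjusted p = 0.0338). Abcd3 ranged from 12.41 to 12.79 in sham and from 12.45 to 12.59 in TAC, with a difference of -0.08 (adjusted p = 0.512). A dim second probe set of Abcd3 was lower by 0.43, and the mean of both differed by -0.25 (adjusted p = 0.0307).

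The peroxins and the enzymes were compared as groups. The mean over the 11 peroxins was 9.17 to 9.29 in the sham arrays and 8.99 to 9.02 in the TAC arrays, a difference of -0.25. The mean over the 20 enzymes was 10.09 to 10.13 in sham and 9.84 to 9.93 in TAC, a difference of -0.23. Neither pair of ranges overlapped. Within each array the peroxin mean lay 0.82 to 0.92 below the enzyme mean in sham and 0.82 to 0.93 below it in TAC, and these ranges overlapped. Over single genes the values of TAC lay wholly below sham in 4 of 11 peroxins and 9 of 20 enzymes, and wholly above in 0 and 1, against 12.2% and 13% of all genes. Of the 31 genes 26 had a negative difference, where 50.8% of all genes did. No test over the members as a group was made, because they were chosen with results of these arrays known.

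Counted over all their 60 probe sets, 16 fell and 1 rose, against 8.86% and 8.87% of all probe sets on the arrays. Of the 19 genes with several probe sets, 12 had differences of the same sign at all of them and 7 had both signs. Pex2, Pex11a and Crat fell at every one of their probe sets.

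Further genes of the organelle, taken from whole lists, were also counted. These lists too were drawn up with earlier results of these arrays known, so their counts are no independent support. A list of further peroxins and division genes also held other genes, among them Pxmp2, Pxmp4, Mpv17 and Tmem135. Of its 13 measured genes 5 fell and 0 rose, against 12.3% and 12.8% of all genes, with a median of -0.20. In limma 1 of them, Acbd5, had an unadjusted p below 0.05 and was higher. The 5 were the membrane channel gene Pxmp2 (-0.73, SE 0.06, adjusted p = 3.28e-05), Mpv17 (-0.59), Pxmp4 (-0.51), Tmem135 (-0.39) and the Pex11a relative Pex11g (-0.29, SE 0.08, adjusted p = 0.0179). Among the genes of that list with a Pex symbol, Pex11g alone fell. Pex10 (-0.23, adjusted p = 0.0656 in limma) and Pex5l (0.09, adjusted p = 0.622) did not pass. The division genes Fis1, Mff and Dnm1l, which peroxisomes share with mitochondria, did not pass, at -0.20, -0.09 and -0.06.

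Of 36 measured further peroxisomal enzymes 13 fell and 2 rose, against 12.3% and 12.8% of all genes, with a median of -0.15. Gstk1, a glutathione transferase gene of peroxisomes and mitochondria, fell most, by 1.23 (SE 0.09, adjusted p = 1.30e-05). Its sham arrays held 12.30 to 12.69 and its TAC arrays 11.20 to 11.43, well apart. Mlycd, which encodes malonyl-CoA decarboxylase, fell by 0.78, Zadh2 by 0.49, Dhrs4 by 0.48 and the isomerase gene Eci2 by 0.40 (adjusted p 5.98e-05 to 0.000735). The 2 that rose were Acox2, an oxidase for branched chains (0.48, SE 0.10, adjusted p = 0.00524), and Far1 (0.29, SE 0.07, adjusted p = 0.0113), which supplies the fatty alcohol for ether lipids.

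**Figure D3:**
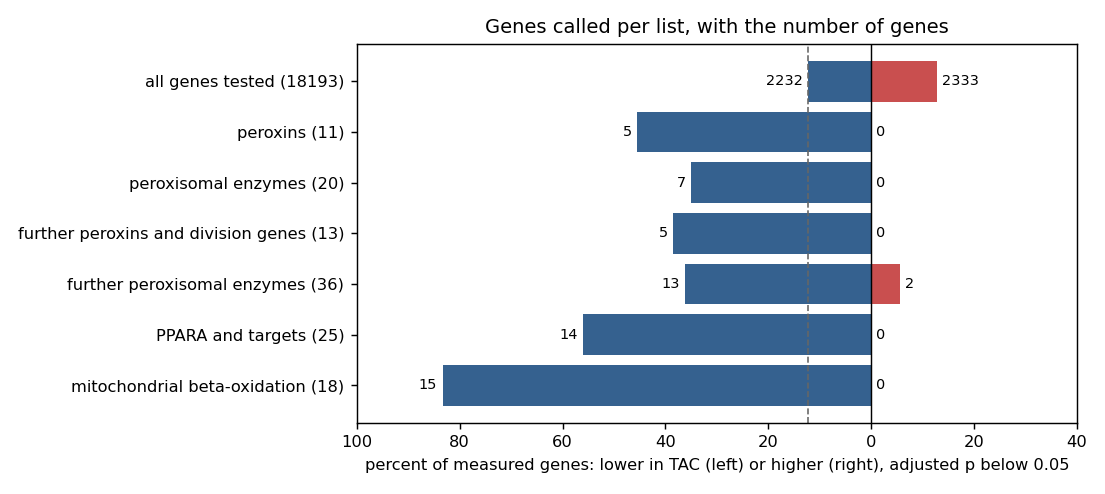
Percent of the measured genes of each list that were lower (left) or higher (right) in TAC at an adjusted p below 0.05 in limma, with the number of genes at the bars and the list sizes in parentheses; the dashed line marks the share of all genes that were lower (12.3%). Peroxins (5 of 11) and peroxisomal enzymes (7 of 20) lie between all genes and mitochondrial beta-oxidation (15 of 18).

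The related pathways of the heart are given for scale, beside 12.3% of all genes lower and 12.8% higher. Of 18 measured genes of mitochondrial beta-oxidation 15 fell and 0 rose (0 had an unadjusted p below 0.05 and were higher), with a median of -0.39. The largest were Eci1 (-0.83), Acaa2 (-0.81), Cpt2 (-0.70) and Hadha (-0.68). That the share called was larger than among the peroxisomal genes was not tested. Of 25 measured genes around PPAR-alpha, 14 fell and 0 rose (1, Fgf21, had an unadjusted p below 0.05, with a difference of 0.24 and adjusted p = 0.123), with a median of -0.38. Ppara itself measured 9.62 to 9.84 in sham and 8.40 to 9.05 in TAC, a difference of -1.10 (SE 0.12, adjusted p = 0.000111). Rxrg, a partner receptor gene, differed by -0.90, and the thioesterase genes Acot1 and Acot2 by -3.17 and -0.69. Other known targets did not pass, among them Pdk4 (0.08), Cpt1a (0.16), Angptl4 (0.51) and Fabp3 (0.00). Fabp3 was 14.50 to 14.65 in sham and 14.59 to 14.63 in TAC. These values lay near the highest on the scale, 14.80, so a change in Fabp3 could go unseen. The list shares Cpt2, Acadm and Slc25a20 with mitochondrial beta-oxidation and Mlycd with the further peroxisomal enzymes.

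Cell markers moved beside these genes, and their counts stand against 12.3% of all genes lower and 12.8% higher. Fibroblast markers were higher in TAC (8 of 12 rose, 0 fell; list mean 10.77 to 11.13 in sham and 11.66 to 11.91 in TAC), and Col1a1 rose by 0.92. Macrophage and leukocyte markers were also higher (8 of 13 rose, 0 fell, list mean 8.31 to 8.66 in sham and 8.98 to 9.09 in TAC), and Ptprc rose by 0.78. In limma 1 of the 13, Cd163, had an unadjusted p below 0.05 and was lower (-0.40, adjusted p = 0.0564). In bulk tissue fewer cells of a type and less RNA per cell cannot be told apart, and the part of these cells in the decreases was not tested. Of 13 cardiomyocyte markers 1 rose (Nppa) and 1 fell (Tnni3), and the list mean was 13.93 to 14.10 in sham and 14.18 in each TAC array. Without Nppa it was 14.18 to 14.19 in sham and 14.17 to 14.18 in TAC, a difference of -0.02. That mean lay near the top of the scale, whose highest value was 14.80, so a change in these markers could go unseen. Myl3 was 14.77 in all 9 arrays, and the cardiomyocyte troponin gene Tnnt2 was also bright in all arrays (14.52 to 14.63). Endothelial markers (1 of 11 rose, 1 fell) and smooth muscle and pericyte markers (3 of 10 rose, 4 fell) overlapped between groups in their means, as did mesothelial and epicardial markers (2 of 9 rose, 0 fell) and erythrocyte markers (0 of 3 called).

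Fat cells also hold peroxisomes, and their markers were counted too. Their part in the decreases was not tested. Of 12 measured adipocyte markers 3 fell (Lipe, Pnpla2 and Slc36a2) and Cidea rose, against 12.3% of all genes lower and 12.8% higher. The list mean was 7.35 to 7.48 in sham and 7.15 to 7.21 in TAC. The defining marker Adipoq was near the bottom of the scale in all arrays, at 3.38 to 4.39. So were Lep (3.85 to 4.10) and Cidec (3.72 to 4.14). Other markers of the list were bright, such as Fabp4 (13.69 to 13.83) and Cidea (10.27 to 10.89).

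**Figure D4:**
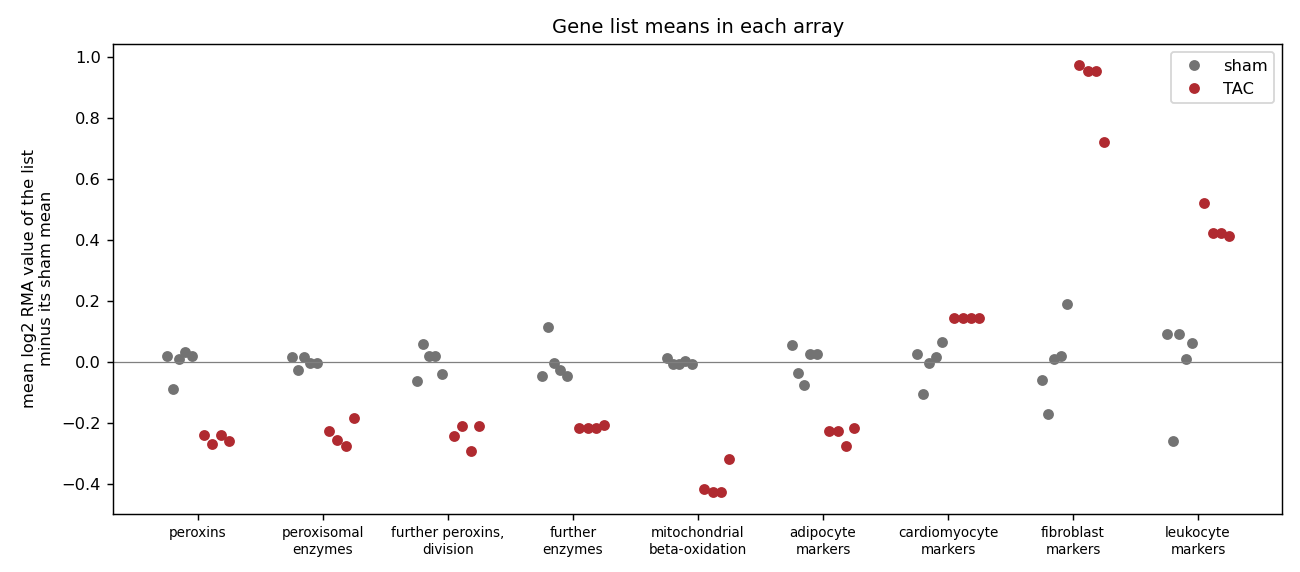
Mean log2 RMA value of each gene list in every array, less the sham mean of that list, for sham (grey, 5 arrays) and TAC (red, 4 arrays). Peroxins and peroxisomal enzymes lie 0.25 and 0.23 lower in TAC with no overlap, the adipocyte list 0.23 lower, and fibroblast and leukocyte markers higher by 0.90 and 0.44.

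The labels were checked with markers of pressure overload: Nppa was higher by 2.14 and Myh7 by 3.03, with no overlap. Mean correlations of an array with its own group were 0.995 to 0.997 in TAC and 0.990 to 0.995 in sham, where sham replicate 2 was lowest. The 3' minus 5' signal of the actin and GAPDH controls, a measure of RNA integrity, was 0.90 to 1.16 in sham and 0.90 to 0.93 in TAC. Without sham replicate 2, 6 peroxins and 9 enzymes fell and 1 enzyme (Hacl1) rose.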

How the data were processed

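The values are on a log2 scale as the authors deposited them. The submitters' processing notes name RMA without a version, a method that removes background, equalises the distributions of the arrays and gives 1 value for each probe set. All 9 arrays held the same sorted values, so a general rise or fall of RNA cannot be seen. The number of arrays limits the precision. Of 45101 probe sets, 64 were controls, 34945 had 1 gene symbol, 932 had several and 9160 were not listed. Through the gene ID, 34741 probe sets with 1 symbol were found in the reference gene list, and 0 symbols changed.

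Groups came from the treatment label. limma 3.58.1 under R 4.3.3 (two-sided, without covariates, 7 residual and 3.27 prior degrees of freedom) was fitted over 18193 genes with no filter, and again over all probe sets except controls. Replicates are numbered by accession order and are not paired. The members and gene lists were chosen with earlier results of these data known. All 31 members were named, with up to 5 called genes per direction of the further peroxisomal lists and up to 4 of the comparison lists. Pex10, Pex5l, Fis1, Mff, Dnm1l, Acbd5, Fgf21, Pdk4, Cpt1a, Angptl4, Fabp3 and Myl3 were named after their values were seen. So were Lep, Cidec, Fabp4, Cd163 and the marker genes that complete small counts. Differences between members within arrays are given without a test. Promoter sequences were RefSeq's.

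On simulated data for TAC against sham over 18193 genes, 50 genes were changed at each size. The fit recovered 14.0% of changes of 0.3, 58.0% of 0.5, 90.0% of 1 and 100.0% of 2 on the log2 scale, with 10 false calls among 141. The arrays themselves gave 4565 calls, so an adjusted p of 0.05 was a stricter limit in the simulation. These percentages therefore do not give the recovery in the arrays. Alternatives were the mean of probe sets, probe sets below 13, genes above the median gene, limma's trend and robust options together, weights for arrays, median centring, cyclic loess, 2 stricter thresholds and leaving out each array. Figures used Python 3.11.15, pandas 2.3.3, numpy 2.4.6 and matplotlib 3.10.9.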

Additional observations from a re-analysis of the deposited data

Results flagged for a closer look

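In each group of 4 or 5 arrays the highest or lowest value was checked for a gap to its neighbour that is large against the group's range (Dixon's 95% critical value). The check covered 58 genes and 15 list means in both groups, 146 in all, and gave 13 hits, where chance gives about 7.3. Among the 31 members there were 2 hits in 62 groups. Pex7 was high in sham replicate 3 (10.49, next 10.40), and Pex13 was low in sham replicate 2 (10.36, next 10.58).

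Sham replicate 2 also had the lowest mean over the peroxins (9.17, next 9.27) and over macrophage and leukocyte markers (8.31, next 8.58) of the sham arrays, and the highest mean over the further peroxisomal enzymes (8.67, next 8.55). TAC replicate 4 was high for Cpt2 (12.32, next 12.07), for the mean of mitochondrial beta-oxidation (12.38, next 12.28) and for endothelial markers (10.40, next 10.27), and low for fibroblast markers (11.66, next 11.89). Mlycd was low in sham replicate 5 (10.50, next 10.62). TAC replicate 1 was high for macrophage and leukocyte markers (9.09, next 8.99), TAC replicate 3 low for adipocyte markers (7.15, next 7.20), and Tnnt2 was lowest in TAC replicate 2 (14.54, next 14.55).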

How the results depend on the processing

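No alternative reversed a called difference of the 31 genes. Leaving out 1 array changed the side of the threshold for single genes 16 times by a loss and 8 times by a gain, and the other alternatives, apart from the stricter thresholds, 1 time by a loss and 24 times by a gain. Of 5 peroxins that fell, array weights gave 8 (16.7% of all genes were then lower, against 12.3%) and at least 1.5-fold gave 1. Of 7 enzymes that fell, limma's trend and robust options gave 11 (13.8% of all genes) and 1.5-fold 2. The count of enzymes that rose was 1 with the mean of probe sets (Cat), and 1 with genes above the median gene and with array weights (Hacl1 in both). The peroxin median of -0.19 was -0.23 with genes above the median gene and with array weights and -0.24 with median centring, which moved the median of all genes to -0.05. The enzyme median was -0.24 with centring and -0.16 with cyclic loess. For the further genes, 18 lower, 2 higher and a median of -0.15 became a median of -0.23 and 1 higher with genes above the median gene, a median of -0.20 with centring, 1 higher at an adjusted p below 0.01, and 6 lower and 0 higher at 1.5-fold. Over all genes, 2232 lower and 2333 higher became 1252 and 1356 at 0.01, 642 and 981 at 1.5-fold, 3045 and 2896 with array weights, and 2907 and 1978 with median centring, where 59.5% of the called genes were lower, against 48.9%. Leaving out 1 array gave 4 to 6 peroxins and 5 to 9 enzymes lower and 0 to 1 enzymes higher, medians of -0.26 to -0.16, -0.20 to -0.16 and -0.21 to -0.13 (peroxins, enzymes, further genes), 15 to 20 further genes lower and 2 to 3 higher, and 1605 to 2528 genes lower in all. The causes were not tested. Ech1 and Phyh have no probe set below 13. No paired analysis was possible because the labels give no replicate numbers that groups share.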
